A study of Mus musculus with 6 samples.

Results

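The genes of glucose uptake, glycolysis and the tricarboxylic acid (TCA) cycle were followed in mandibular arches dissected from mouse embryos of stage E10.5, on arrays labelled Tbx1+/+ (wild type) and arrays labelled Tbx1-/- (null for the T-box transcription factor Tbx1). The set was fixed by name and holds 38 genes of carriers and enzymes. A probe set with a single platform symbol was found for 36 of them, out of 18194 genes with such a probe set, and Gpi1 and Eno1 had none. Each gene was read from its brightest probe set, the one with the highest mean over the 6 arrays. All 36 exceeded the lower limit of 4 on the log2 scale that a gene needed on at least 3 arrays to be tested, as did 16074 genes in all.

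RNA came from dissected arches of C57BL/6 embryos, 3 arrays per genotype, and was hybridised to Affymetrix expression arrays. Both genotypes shared the strain, the stage and the dissected tissue, and no treatment was given in the labels. The submitters pooled arches by genotype, 3 embryos each, and it is not settled whether every array had a pool of its own, so p-values measure the spread between these samples, which may be technical. Values are log2 expression per probe set, and differences are labelled null minus wild type on that scale, with the standard error (SE) from limma. An adjusted p covers all 16074 genes by the Benjamini-Hochberg method, and a gene passed at 0.05. In bulk tissue, fewer cells of a type and less RNA per cell cannot be told apart.

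Glucose enters cells through facilitative carriers of the Slc2a family and is split by the glycolytic enzymes to pyruvate. Pyruvate is either reduced to lactate by lactate dehydrogenase and exported by Slc16a carriers, or passed to the mitochondrion, where pyruvate dehydrogenase feeds the TCA cycle unless a pyruvate dehydrogenase kinase switches it off. Several steps are served by isoenzymes from separate genes, and many glycolytic genes, but few of the TCA cycle, are known targets of the hypoxia-inducible factors. Cells of early embryos are known to use glycolysis heavily even where oxygen is present.

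The arrays had these properties in common. Array medians lay between 6.08 and 6.15, and the difference between the 3' and 5' control probe sets, a measure of RNA quality, was 0.59 to 0.80 for Actb on the wild-type arrays and 0.72 on each labelled-null array. Markers of mandibular arch mesenchyme were present, with all 10 listed genes above the limit and a summed level of 14.50 to 14.57 on the wild-type and 14.50 to 14.58 on the labelled-null arrays. Tbx1 read 6.93, 7.31 and 6.92 on the wild-type arrays and 7.59, 7.50 and 7.30 on the arrays labelled null, so it was not lower there. The sources used here do not say which part of the gene the null allele lacks, and the probe set therefore cannot serve as a check of the labels. Labelled-null replicate 3 stood apart: 249 genes there exceeded their mean over the remaining 5 arrays by over 1 log2 unit, against 6 to 32 genes on any other array, and placental transcripts were high on it (Prl7a1 13.28, against 3.53 to 4.76 elsewhere). Results are therefore also given without that array where it changes them.

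Some carriers and glycolytic enzymes had higher levels on the labelled-null arrays, with groups that did not overlap for 2 of 4 carriers and 6 of 13 glycolytic enzymes, while others overlapped and the TCA genes differed little. The largest differences were in Eno2, a neuron-enriched enolase (log2 1.61, 3.05-fold, but 1.00 without labelled-null replicate 1, below the 1.12 of Pfkp), Pfkp, the platelet-type phosphofructokinase (1.39, 2.62-fold), Slc16a3, a lactate exporter (0.81, 1.75-fold), and Hk2, the inducible hexokinase (0.69, 1.62-fold). Of the 36 members, 19 had higher means on the labelled-null arrays, against 47.3% of all genes, all of them among the 25 outside the TCA cycle, and all 11 TCA members had slightly lower means. None of the 36 passed the adjusted threshold in limma in either direction, where 0.0124% of all genes passed higher and 0.0249% lower. The unadjusted p was under 0.05 for 13 members with higher means, against 1.47% of all genes, and for 0 with lower means, against 1.20%. The labelled-null arrays lay wholly above the wild-type arrays for 10 members, against 3.17% of all genes, and wholly below them for 1, against 3.25%.

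Without labelled-null replicate 3, 3 members passed in limma, Eno2 (log2 2.36, adjusted p = 0.0121), Pfkp (1.59, adjusted p = 0.0235) and Slc2a3 (0.82, adjusted p = 0.0235), against 0.0871% of all genes. In that analysis 14 members were higher at an unadjusted p under 0.05, against 1.78% of all genes. The groups then did not overlap, in the higher direction, for 14 members, against 6.68%. In the lower direction they did not overlap for Eno3 (-0.089) and Suclg1 (-0.086), and the share of all genes in that direction is not given here. Leaving out any other single array left no member past the adjusted threshold in limma. In those runs 10 or 11 members were higher at an unadjusted p under 0.05. The share of all genes was 1.47% with all 6 arrays and is not given here for those runs. For the 13 members at an unadjusted p under 0.05, labelled-null replicate 1 was the highest of the 6 arrays in 11 and labelled-null replicate 3 in 2. These members were picked by their higher labelled-null values, so they cannot be set against all genes in this respect. Over all 36 tested members, labelled-null replicate 1 was highest in 15, wild-type replicate 2 in 13 and labelled-null replicate 3 in 3. Over all genes tested these arrays were highest for 17.7%, 25.3% and 19.1%.

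**Figure D1:**
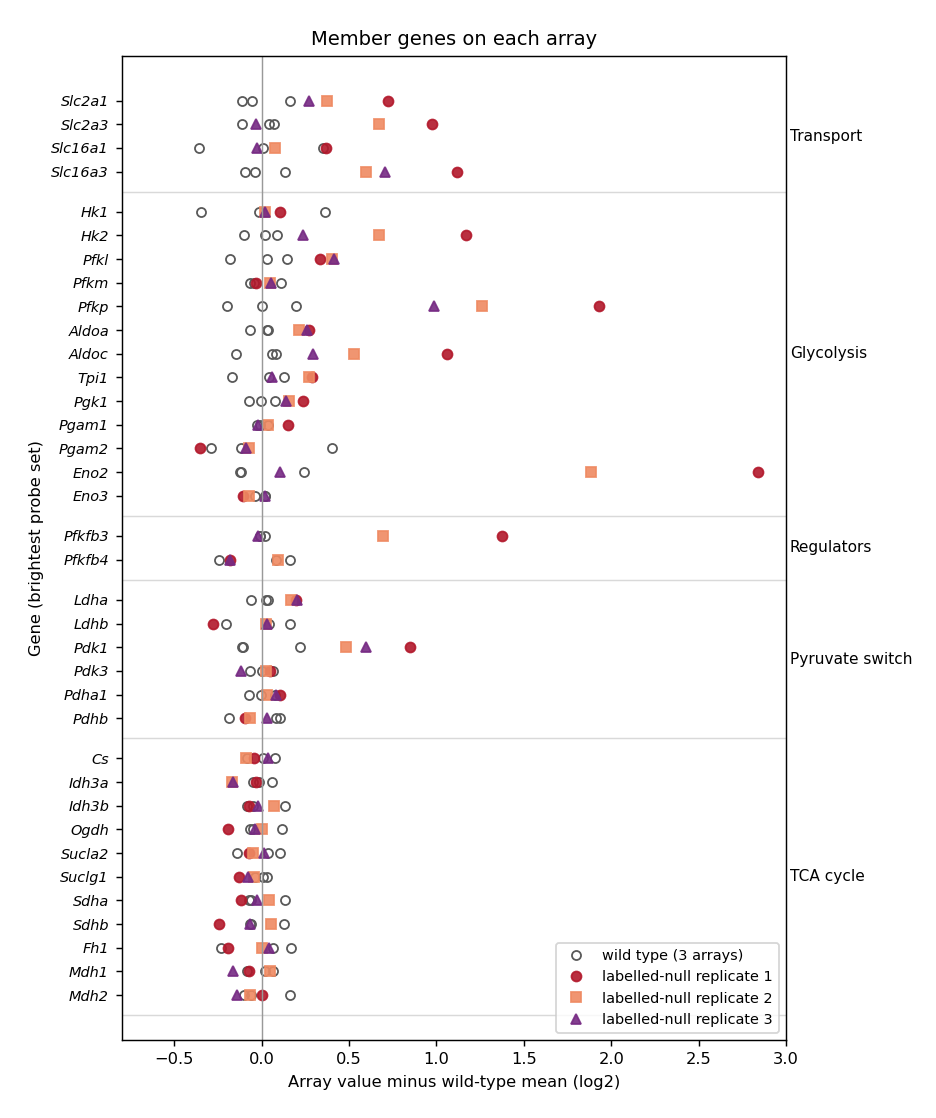
Each row is a member gene by role, and each point is the value on 1 array minus the gene's wild-type mean (x axis, log2), open for the 3 wild-type arrays and filled for the 3 labelled-null arrays. All 3 filled points lie to the right of the open ones for 10 genes, among them Slc16a3, Pfkp, Hk2 and Pdk1, whereas they mix with the open ones for Slc16a1, Hk1, Pfkm, Pgam1, Pgam2 and Eno3 and lie beside them for the 11 TCA genes.

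Promoter letters are shown for 5 members whose labelled-null arrays lay above the wild-type arrays and for citrate synthase, Cs, as a TCA gene, because members of the first kind had higher levels together. The windows are the 250 bases before the annotated start (RefSeq, GRCm38.p6), and capitals mark ACGTG or GCGTG on either strand (CACGT or CACGC as printed), letters found in hypoxia response elements. The palindrome CACGTG counts on both strands.
Ldha, chr7:46845554-46845803, plus strand: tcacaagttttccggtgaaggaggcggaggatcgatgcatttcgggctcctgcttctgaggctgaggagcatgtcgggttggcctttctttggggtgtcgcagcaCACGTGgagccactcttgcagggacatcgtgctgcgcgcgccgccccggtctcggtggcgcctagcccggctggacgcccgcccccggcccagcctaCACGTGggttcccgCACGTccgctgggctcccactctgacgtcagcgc
Pgk1, chrX:106186850-106187099, plus strand: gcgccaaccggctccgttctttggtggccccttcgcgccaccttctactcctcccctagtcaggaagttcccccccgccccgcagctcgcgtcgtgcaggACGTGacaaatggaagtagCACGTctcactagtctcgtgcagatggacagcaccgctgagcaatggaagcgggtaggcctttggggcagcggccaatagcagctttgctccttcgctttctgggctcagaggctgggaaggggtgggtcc
Slc2a1, chr4:119108495-119108744, plus strand: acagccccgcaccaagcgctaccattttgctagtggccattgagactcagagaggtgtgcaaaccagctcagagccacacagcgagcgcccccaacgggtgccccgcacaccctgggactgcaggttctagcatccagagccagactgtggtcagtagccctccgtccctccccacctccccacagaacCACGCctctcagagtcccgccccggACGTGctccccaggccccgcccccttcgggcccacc
Slc16a3, chr11:120948817-120949066, plus strand: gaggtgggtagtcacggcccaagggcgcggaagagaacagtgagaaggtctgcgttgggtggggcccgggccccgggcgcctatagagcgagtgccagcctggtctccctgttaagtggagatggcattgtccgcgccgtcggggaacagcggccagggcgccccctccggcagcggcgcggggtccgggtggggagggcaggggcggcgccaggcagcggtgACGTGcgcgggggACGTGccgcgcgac
Pfkp, chr13:6648772-6649021, minus strand: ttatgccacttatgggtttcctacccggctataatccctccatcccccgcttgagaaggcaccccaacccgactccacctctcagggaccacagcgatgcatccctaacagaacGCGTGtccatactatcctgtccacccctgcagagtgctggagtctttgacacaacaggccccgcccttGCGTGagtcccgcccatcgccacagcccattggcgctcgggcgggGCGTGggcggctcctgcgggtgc
Cs, chr10:128337477-128337726, plus strand: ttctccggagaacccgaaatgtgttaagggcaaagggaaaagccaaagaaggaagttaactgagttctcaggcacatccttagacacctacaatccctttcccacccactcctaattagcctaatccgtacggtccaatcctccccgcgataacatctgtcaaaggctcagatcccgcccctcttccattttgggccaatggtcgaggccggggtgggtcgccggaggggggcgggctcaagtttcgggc
The Ldha window held 3 marked places, that of Pfkp 3, those of Pgk1, Slc2a1 and Slc16a3 2 each, and that of Cs 0. The windows shown do not stand for their groups. Among members of the first kind not shown, the first listed window of Hk2 held 2, those of Pfkl, Aldoc and Pdk1 1 each, and that of Aldoa 0. Among TCA genes not shown, Suclg1 and Sdha held 3 each, and Ogdh and Sdhb 2 each. Fh1, Mdh1 and Mdh2 held 1 each, and Idh3b and Sucla2 held 0.

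Windows were listed for 36 of the 38 members, and the first listed window was used where a gene had several, as 9 members did. At least 1 of the 2 motifs stood in the windows of 9 of the 10 members whose groups did not overlap in the higher direction, and in 17 of the 24 other tested members with a window (70.8%). The share was 52.3% over the 12812 tested genes with a window and 38.6% over all 27025 genes of the table. ACGTG alone stood in 5 of those 10, in 9 of the other 24 and in 20.4% of the tested genes. These are letter matches within 250 bases, a description and not binding sites. TCA genes held them too, 7 of 10, so the letters did not separate the roles.

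Carriers came first in the pathway, and all 4 had higher means on the labelled-null arrays (median difference 0.50, against -0.01 over all genes tested). Slc2a1, the widely expressed basal glucose carrier Glut1, read 12.69, 12.75 and 12.97 on the wild-type arrays and 13.52, 13.17 and 13.07 on the labelled-null arrays. The groups did not overlap, with labelled-null replicate 1 the highest. Slc2a1 differed by 0.46 (SE 0.12, n = 3 per genotype, 1.37-fold), with an unadjusted p in limma of 0.00484 and an adjusted p of 1.00. Its other probe sets differed by 0.56 and 0.35, also without overlap.

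Slc2a3, the high-affinity carrier Glut3 of neurons, placenta and early embryos, read 12.01, 11.82 and 11.98 on the wild-type arrays and 12.91, 12.61 and 11.91 on the labelled-null arrays. Replicates 1 and 2 lay above every wild-type array and replicate 3 within their range. The difference was 0.54 (SE 0.22, 1.45-fold, unadjusted p in limma 0.0369), and 0.82 without replicate 3 and 0.32 without replicate 1. Its second bright probe set differed by 0.49.

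Slc16a3 encodes Mct4, the carrier through which glycolytic cells release lactate. It read 9.53, 9.48 and 9.71 on the wild-type arrays and 10.69, 10.17 and 10.28 on the labelled-null arrays, without overlap. The difference of 0.81 (SE 0.14) had an unadjusted p of 0.000356 and an adjusted p of 0.293 in limma, rank 19 among all genes. Slc16a1, or Mct1, the carrier that takes lactate up or releases it, read 11.58, 10.87 and 11.24 against 11.60, 11.31 and 11.20, a difference of 0.14 (SE 0.17). Its groups overlapped, and without wild-type replicate 2 the difference was -0.04.

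Glycolytic enzymes had a median difference of 0.21 over 13 tested members, with 11 higher means, against 47.3% of all genes, and 7 of the 13 higher at an unadjusted p under 0.05, against 1.47%. At the first step, Hk2, an inducible hexokinase held at the mitochondrial surface, read 10.87, 10.75 and 10.93 on the wild-type arrays and 12.02, 11.52 and 11.09 on the labelled-null arrays. All 3 labelled-null values were above the wild-type ones, replicate 3 by the least. Hk2 differed by 0.69 (SE 0.20, unadjusted p in limma 0.00818), and by 0.45 without labelled-null replicate 1 and 0.92 without replicate 3. Hk1, the constitutive hexokinase, read 7.30, 8.01 and 7.63 against 7.75, 7.66 and 7.67. Its difference of 0.05 (SE 0.17) was far inside the wild-type spread, and was -0.13 without wild-type replicate 1.

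Phosphofructokinase, the committed step, showed the clearest contrast between isoforms. Pfkp read 7.59, 7.78 and 7.98 on the wild-type arrays and 9.71, 9.04 and 8.77 on the labelled-null arrays, so that the lowest labelled-null value exceeded the highest wild-type value. The difference of 1.39 (SE 0.23) had an unadjusted p of 0.000239 and an adjusted p of 0.275 in limma, rank 14 among all genes. It was 1.12 without labelled-null replicate 1 and 1.59 without replicate 3. The 2 dimmer probe sets of Pfkp differed by 0.59 and 0.34 with overlapping groups.

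Pfkl, the liver-type subunit, read 10.57, 10.89 and 10.78 on the wild-type arrays and 11.08, 11.15 and 11.16 on the labelled-null arrays. The labelled-null values lay close together and above all wild-type values, replicate 3 included, with a difference of 0.38 (SE 0.09, unadjusted p in limma 0.00305, adjusted p = 0.959). Pfkm, the muscle-type subunit, read 9.12, 9.30 and 9.15 against 9.16, 9.24 and 9.24. Its groups overlapped and it differed by 0.02 (SE 0.09).

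Pfkfb3 and Pfkfb4 make and remove fructose 2,6-bisphosphate, the activator of phosphofructokinase, and Pfkfb3 mainly makes it. Pfkfb3 read 8.75, 8.78 and 8.75 on the wild-type arrays and 10.13, 9.45 and 8.73 on the labelled-null arrays. The wild-type arrays were nearly identical, labelled-null replicates 1 and 2 were far above them, and replicate 3 was just below them. The difference was 0.68 (SE 0.29, unadjusted p in limma 0.0463), and 1.03 without replicate 3 and 0.34 without replicate 1. Pfkfb4 differed by -0.09 (SE 0.15), with values of 5.97 to 6.37 on the wild-type and 6.03 to 6.30 on the labelled-null arrays.

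**Figure D2:**
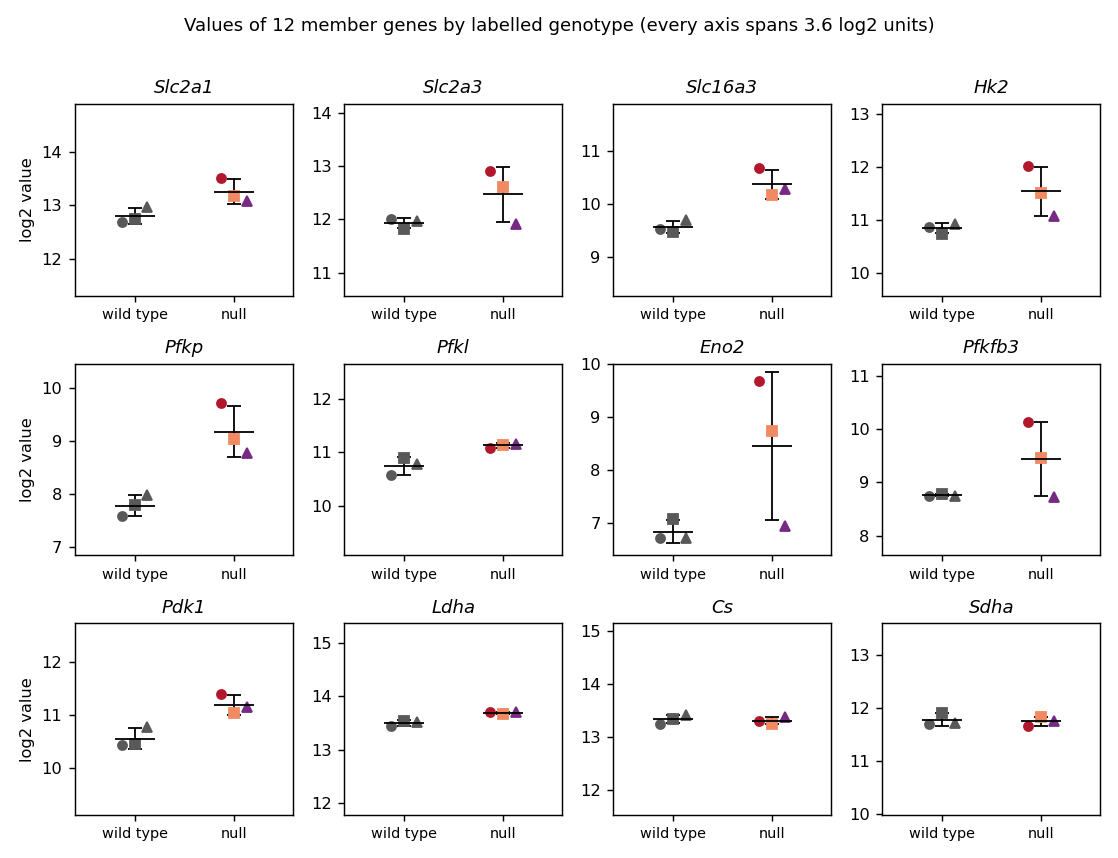
Log2 values of 12 members by labelled genotype, with 1 point per array (circle, square and triangle for replicates 1, 2 and 3) and bars for the mean and SD of 3 arrays. Eno2, Pfkfb3 and Slc2a3 have labelled-null replicate 3 at the wild-type level, whereas all 3 labelled-null arrays are higher for Pfkp, Slc16a3, Pdk1, Pfkl and Ldha, and Cs and Sdha overlap.

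Aldolase splits the doubly phosphorylated sugar. Aldoa, the ubiquitous form, read 13.26, 13.35 and 13.36 on the wild-type arrays and 13.60, 13.54 and 13.58 on the labelled-null arrays. These narrow groups did not overlap, and the difference of 0.25 (SE 0.05) had an unadjusted p of 0.00103 and an adjusted p of 0.489 in limma. Its 4 other probe sets differed by 0.24 to 0.34, all without overlap. Aldoc, the brain-enriched form, read 6.31, 6.11 and 6.34 against 7.31, 6.78 and 6.55. It differed by 0.63 (SE 0.19, unadjusted p in limma 0.0111), again most on replicate 1, and by 0.41 without that array.

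The enzymes of the middle and lower steps differed by smaller amounts. Pgk1, phosphoglycerate kinase, the first step to yield ATP, read 13.24, 13.30 and 13.38 on the wild-type arrays and 13.55, 13.46 and 13.45 on the labelled-null arrays. The groups were separate but close, and the difference was 0.18 (SE 0.06, unadjusted p in limma 0.0127), with 0.33 and 0.26 on its other probe sets. Tpi1, triosephosphate isomerase, differed by 0.21 (SE 0.09, unadjusted p in limma 0.0609), and its 2 other probe sets by 0.20 and 0.21 without overlap. With the replicate number as a block the unadjusted p of Tpi1 was 0.00417 and the adjusted p 0.664. Pgam1, the main phosphoglycerate mutase, read 13.02 to 13.09 on the wild-type and 13.03 to 13.20 on the labelled-null arrays, a difference of 0.06 (SE 0.06). Pgam2, its muscle form, differed by -0.17 (SE 0.19), with its highest value of 6.46 on wild-type replicate 2, and by 0.03 without that array.

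Enolase was read through Eno2 and Eno3. Eno2 read 6.73, 7.09 and 6.72 on the wild-type arrays and 9.68, 8.73 and 6.95 on the labelled-null arrays. It was thus much higher on labelled-null replicates 1 and 2 and within the wild-type range on replicate 3, which made its SD 1.39 on the labelled-null arrays against 0.21. The difference of 1.61 (SE 0.57) had an unadjusted p of 0.0216 in limma, and it was 2.36 (SE 0.25) without replicate 3 and 1.00 without replicate 1. Eno2 also marks neurons. The summed level of 5 neuron and crest glia markers was 10.60 to 10.76 on the wild-type arrays. It was 11.04, 10.68 and 10.71 on the labelled-null arrays, highest on replicate 1. That sum was mostly Isl1, which read 10.34 to 10.84 over all arrays, with 10.84 on labelled-null replicate 1. The others read 4.60 to 6.80. Among the labelled-null arrays Stmn2, Tubb3 and Sox10 were lowest on replicate 1, and Elavl4 on replicate 3. Of the 5 markers, Stmn2 was higher on all 3 labelled-null arrays (difference 0.90, SE 0.17). Isl1 (0.12), Elavl4 (0.08), Sox10 (-0.03) and Tubb3 (-0.05) overlapped. The part of neurons in the Eno2 values was not tested. Eno3, the muscle form, differed by -0.05 (SE 0.07), with values of 10.83 to 10.96 on all 6 arrays.

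At the pyruvate branch point the median difference was 0.03 over 6 members, but the individual genes parted. Pdk1, a kinase that inactivates pyruvate dehydrogenase, read 10.45, 10.45 and 10.78 on the wild-type arrays and 11.41, 11.04 and 11.15 on the labelled-null arrays. All labelled-null values were higher, including replicate 3, and the difference was 0.64 (SE 0.13, 1.56-fold, unadjusted p = 0.000803 and adjusted p = 0.426 in limma). Its 3 other probe sets differed by 0.67, 0.72 and 0.41, the last with overlap. Pdk3, another kinase of the family, read 9.15 to 9.28 against 9.10 to 9.27, a difference of -0.02 (SE 0.09).

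Ldha, the subunit favouring lactate formation, read 13.44, 13.54 and 13.52 on the wild-type arrays and 13.70, 13.67 and 13.70 on the labelled-null arrays. The 3 labelled-null values were almost equal and above all wild-type values, with a difference of 0.19 (SE 0.05, unadjusted p in limma 0.00356, adjusted p = 0.959). Ldhb, the subunit favouring pyruvate, read 12.66, 13.02 and 12.90 against 12.58, 12.88 and 12.89, a difference of -0.07 (SE 0.11). On each of its 4 probe sets the labelled-null mean was lower, by 0.05 to 0.09, with overlap. Pdha1 and Pdhb, which form the first component of pyruvate dehydrogenase, differed by 0.07 (SE 0.07) and -0.04 (SE 0.09), with overlapping groups.

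The TCA enzymes had a median difference of -0.06 over 11 members. None had an unadjusted p under 0.05 in limma, against 1.47% of all genes higher and 1.20% lower. Differences ranged from -0.12 for Idh3a, the catalytic subunit of NAD-dependent isocitrate dehydrogenase, to -0.01 for its partner Idh3b, with SEs of 0.08 each. The 3 other probe sets of Idh3a differed the opposite way, by 0.03 to 0.05, with overlap. All 11 TCA members lay between the 5th and 95th percentiles of the differences over all genes (-0.20 and 0.24), whereas 11 of the other members exceeded the 95th. The uniform sign rests on small values: 8 of the 11 turned positive in at least 1 alternative analysis, and in 8 wild-type replicate 2 was the highest of the 6 arrays.

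Cs, citrate synthase, the entry enzyme, read 13.26, 13.35 and 13.42 on the wild-type arrays and 13.30, 13.26 and 13.38 on the labelled-null arrays, with full overlap and a difference of -0.03 (SE 0.06). Ogdh, oxoglutarate dehydrogenase, differed by -0.08 (SE 0.09). Suclg1, the shared subunit of succinyl-CoA ligase, read 10.98, 11.00 and 10.94 against 10.84, 10.93 and 10.89. It was the single member whose labelled-null arrays all lay below the wild-type arrays, replicate 2 only just, and its difference of -0.08 (SE 0.07) had an unadjusted p of 0.241 in limma. Sucla2, its ATP-specific partner, differed by -0.04 (SE 0.08).

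Sdha and Sdhb, subunits of succinate dehydrogenase, which is also complex II of the respiratory chain, differed by -0.03 (SE 0.08) and -0.08 (SE 0.09). Sdha read 11.71, 11.92 and 11.72 on the wild-type arrays and 11.67, 11.83 and 11.76 on the labelled-null arrays, the highest value of each genotype being on replicate 2. Fh1, fumarase, differed by -0.05 (SE 0.11). Mdh1, the cytosolic malate dehydrogenase, and Mdh2, the mitochondrial one, differed by -0.06 (SE 0.07) and -0.07 (SE 0.08).

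**Figure D3:**
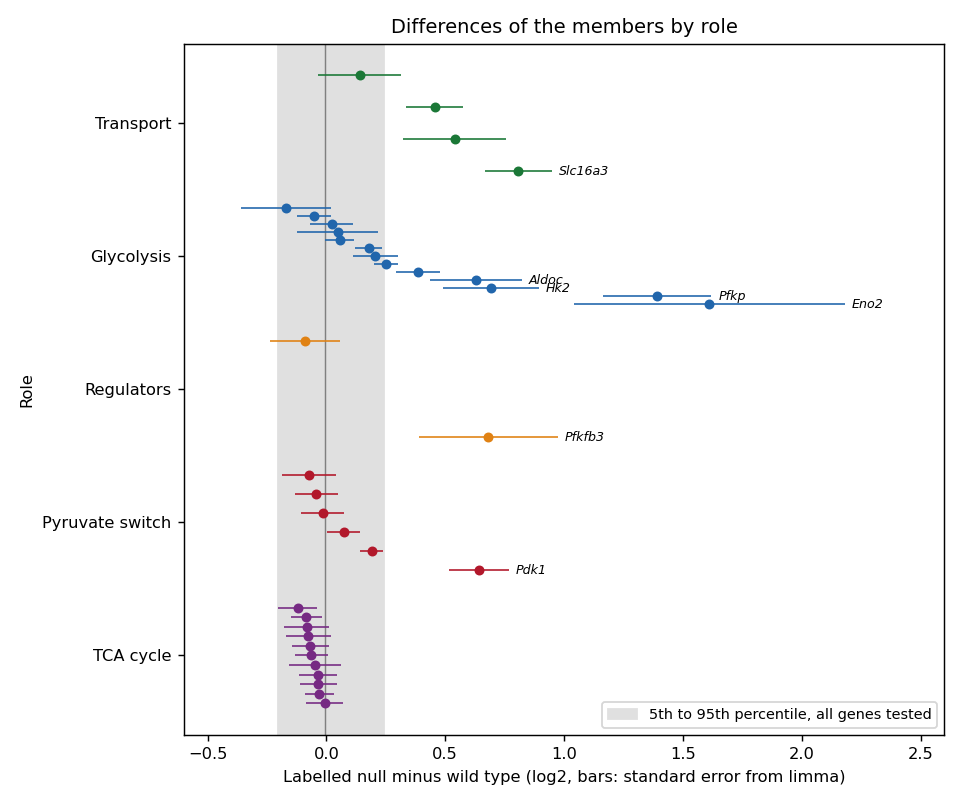
Difference between the labelled-null and wild-type means of each member (x axis, log2, bars show the standard error), by role, with the 5th to 95th percentile range of all 16074 genes in grey. Pfkp and Eno2 lie farthest out, above 1, and all 11 TCA genes lie inside the grey band.

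Isoform use was compared by the log2 ratio of 2 members within each array, which shows unequal change and not which isoform is more abundant. 12 pairs had both members tested, and a two-sided exact permutation test with 3 arrays against 3 cannot go below p = 0.10. The ratio of Pfkp to Pfkl was higher on all labelled-null arrays by a mean of 1.01 (SE 0.32), being 1.60, 0.86 and 0.57 above the wild-type mean, against -0.15 to 0.16 on the wild-type arrays. The ratio of Pfkm to Pfkl was lower by 0.36 (SE 0.06), with the 3 labelled-null values between -0.37 and -0.35. Pfkp over Pfkm differed by 1.37 (SE 0.33), Pdk1 over Pdk3 by 0.66 (SE 0.13), Slc16a3 over Slc16a1 by 0.67 (SE 0.21) and Ldha over Ldhb by 0.26 (SE 0.13). For Ldha over Ldhb the separation was narrow, with wild-type replicate 1 and labelled-null replicate 2 both at 0.14, and it was lost after further quantile normalization (p = 0.20 in the exact test). In these 6 pairs the genotypes did not overlap, which gives p = 0.10 in the exact test, the smallest possible, and 0.20 after Benjamini-Hochberg adjustment over 12 pairs.

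In the other 6 pairs the genotypes overlapped. Hk2 over Hk1 differed by 0.65 (SE 0.35), Aldoc over Aldoa by 0.38 (SE 0.24) and Pfkfb4 over Pfkfb3 by -0.77 (SE 0.43), with labelled-null replicate 3 within the wild-type range in each. Slc2a3 over Slc2a1 differed by 0.08 (SE 0.21), Pgam2 over Pgam1 by -0.23 (SE 0.26) and Idh3a over Idh3b by -0.11 (SE 0.13). Their p-values in the exact permutation test ran from 0.20 to 0.80.

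**Figure D4:**
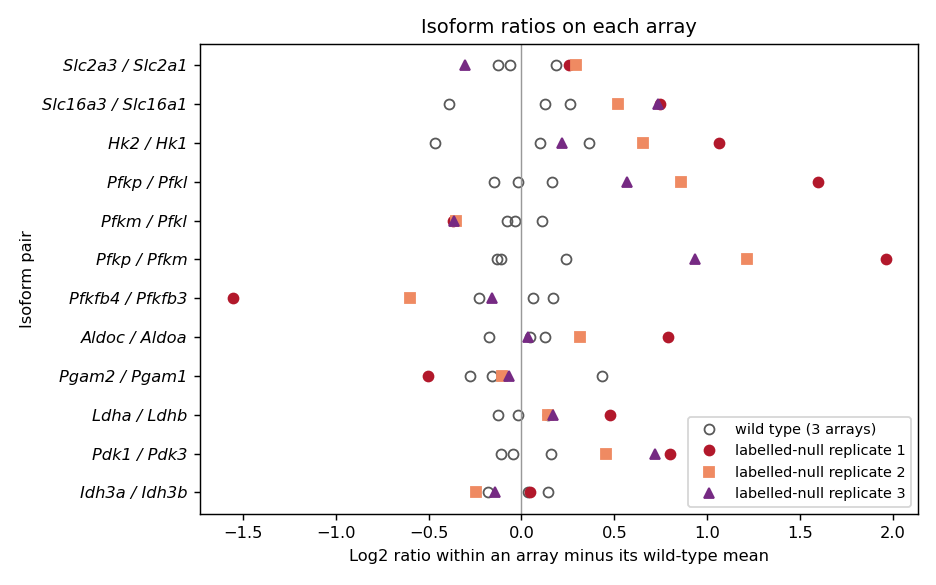
Log2 ratio of 2 isoforms within an array minus the wild-type mean of that ratio (x axis), open points for the 3 wild-type arrays and filled points for the 3 labelled-null arrays. The labelled-null points lie to the right of all open points for Pfkp over Pfkl, Pfkp over Pfkm, Slc16a3 over Slc16a1, Ldha over Ldhb and Pdk1 over Pdk3, and to the left for Pfkm over Pfkl.

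Other genes of the same pathway, from lists of 48 further carriers and enzymes, were tested in 41 cases. In limma, 1 of these was higher at an unadjusted p under 0.05, against 1.47% of all genes, and none was lower, against 1.20%. Their median difference was -0.03. The gene at that p was Pkm, pyruvate kinase, at 13.17, 13.14 and 13.11 on the wild-type and 13.29, 13.30 and 13.21 on the labelled-null arrays (difference 0.13, SE 0.05). Gapdh, read from control probe sets, differed by 0.01 (SE 0.04) at values near 14.3. Bsg, the chaperone of the Slc16a carriers, differed by 0.19 (SE 0.08) without overlap. Fbp2, a fructose bisphosphatase, which acts in the opposite direction to phosphofructokinase, differed by -0.25 (SE 0.13), lower on all labelled-null arrays. Among 11 further pyruvate genes and 11 further TCA genes none had an unadjusted p under 0.05. Of 7 tested pentose phosphate genes 0 did, and of 9 glycogen genes 2 did, against the same 1.47% higher and 1.20% lower of all genes. The glycogen genes were Pgm1, a phosphoglucomutase (0.60, SE 0.19), and Pygl, a glycogen phosphorylase (0.42, SE 0.15), both higher.

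Known targets of the hypoxia-inducible factors outside glycolysis were set beside the members. All 15 tested had higher means on the labelled-null arrays, against 47.3% of all genes. The unadjusted p in limma was under 0.05 for 9, against 1.47%, and 8 did not overlap, against 3.17%. None passed the adjusted threshold, but with the replicate number as a block Ndrg1 (adjusted p = 0.0478, against 0.0637 without it) and Adm (0.0431, against 0.353) passed in limma. Their median difference was 0.63. The 3 with the smallest p were Ndrg1, P4ha2 and Adm. Ndrg1, a stress-responsive gene, read 7.05, 7.11 and 7.33 on the wild-type and 9.61, 8.61 and 8.97 on the labelled-null arrays (difference 1.90, SE 0.23). P4ha2, a subunit of collagen prolyl hydroxylase, read 7.87, 7.77 and 7.81 on the wild-type and 8.85, 8.40 and 8.41 on the labelled-null arrays (difference 0.74, SE 0.14). Adm, the peptide hormone adrenomedullin, read 6.93, 6.77 and 7.58 on the wild-type and 10.38, 8.84 and 11.66 on the labelled-null arrays (difference 3.20, SE 0.60). In each of the 3 genes the groups did not overlap. Adm was highest on labelled-null replicate 3, the array with high placental transcripts, whereas Ndrg1 and P4ha2 were highest on replicate 1. The part of placental RNA in the Adm values was not tested. These lists were assembled with results of these arrays known.

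Markers of several other cell types differed between arrays or genotypes. Of 12 trophoblast and placental markers, 8 had a probe set, and their summed level was 9.04 to 9.33 on the wild-type arrays. It was 9.35 and 9.34 on labelled-null replicates 1 and 2, and 14.65 on replicate 3. Hand1, which is also on the list of arch mesenchyme markers, read 8.35 to 8.81 on the arrays other than replicate 3 of the labelled null. It made up most of the sum there, so that level is no measure of placental RNA. Prl8a9 and Tpbpa, which mark placental cells, stayed under 4 on every array but replicate 3. Of 6 macrophage markers 5 had a probe set, and they summed to 8.49 to 8.98 on the wild-type arrays and to 8.16, 8.34 and 11.87 on the labelled-null arrays, the last through Csf1r, which trophoblast also expresses. Over the 13 members at an unadjusted p under 0.05, a set picked by higher labelled-null values, the median deviation from the wild-type mean was 0.98 on replicate 1, 0.53 on replicate 2 and 0.26 on replicate 3. Over all 36 tested members it was 0.08, 0.05 and 0.03 on the same arrays. Endothelial markers summed to 10.81 to 10.95 on the wild-type and 10.86 to 11.03 on the labelled-null arrays, and primitive erythroid markers to 15.28 to 15.32 and 15.04 to 15.31. Arch muscle progenitor markers, 5 of which had a probe set, summed to 9.20 to 9.35 and to 8.38 to 8.55, lower on all labelled-null arrays. Of these, Tcf21 (-1.53, adjusted p = 0.0184) and Myf5 (-2.33, adjusted p = 0.0493) passed as lower in limma. Myod1 (-0.84) and Msc (-0.81) were also lower without overlap, whereas Tbx1 (0.41) was higher with overlap. Yolk sac markers, 5 of 6 with a probe set, summed to 8.97 to 10.28 and to 8.07 to 8.88, with Afp (-1.47, SE 0.47) and Ttr (-1.78, SE 0.49) lower on all labelled-null arrays. Epithelium and ectoderm markers, all 6 with a probe set, summed to 13.28 to 13.48 on the wild-type arrays. On the labelled-null arrays they summed to 13.60, 13.54 and 14.52, the last on replicate 3. Of these, Krt18 was higher without overlap (0.80, SE 0.34). Krt8 (0.87), Epcam (0.06), Cdh1 (0.05), Trp63 (-0.01) and Krt5 (-0.60) overlapped. Markers of tissue outside the first arch summed to 7.75 to 8.31 on the wild-type and to 8.18 to 8.52 on the labelled-null arrays. Among these Hoxa2, expressed behind the first arch, read 3.54, 3.16 and 3.15 on the wild-type arrays and 5.65, 6.34 and 4.72 on the labelled-null arrays. Hoxa2 was thus highest on labelled-null replicates 1 and 2 (difference 2.29). Its wild-type values all lay under the limit of 4, so it was kept for testing only through its labelled-null values. Its p-value and lack of overlap therefore cannot serve as support and are not used here, and the size of its difference is uncertain. The remaining markers of this list differed little: Hoxa3 by 0.19 without overlap, and Hoxb2 (0.17), Hoxc8 (0.17) and Hoxc6 (0.00) with overlap. The part of these markers in the members' differences was not tested.

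**Figure D5:**
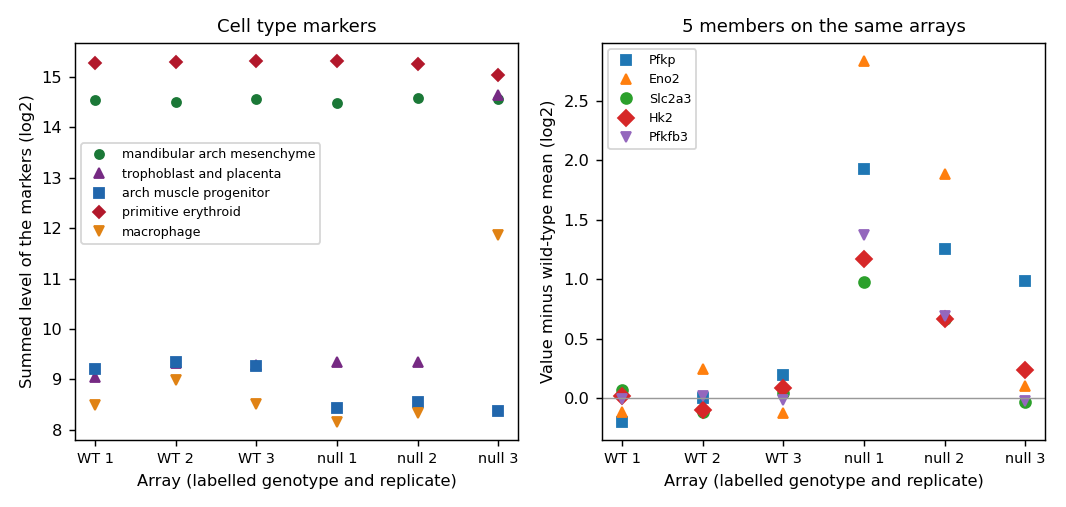
Left, summed level (log2) of 5 marker lists on each array, where the trophoblast list reads 14.65 on labelled-null replicate 3 and 9.04 to 9.35 on the other arrays. On those other arrays most of that level is Hand1, which is also on the mesenchyme list. Right, 5 members on the same arrays as value minus wild-type mean (log2), highest on labelled-null replicate 1 for all 5.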

How the data were processed

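The deposited table holds log2 expression per probe set, made by the authors with GCRMA per the submitters' processing notes (version not stated there). The log2 scale was inferred from their range of 1.95 to 15.11. GCRMA equalises the distributions of the arrays, so a shift of most genes one way would be removed. Of 45101 probe sets, 34958 had 1 platform symbol, 932 several and 9160 none besides controls. Each gene was its brightest set, kept when above 4 on at least 3 arrays. limma 3.58.1 in R 4.3.3 fitted genotype alone with an intensity trend, adjusted by Benjamini-Hochberg over 16074 genes. The step was tested on simulated data.

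The members and lists were chosen with earlier results of these data known. The rule named every member and up to 3 genes with the smallest p in each other list, some of which are printed. Gapdh was named outside it, after its values were seen. Same-numbered arrays deviated together from the genotype means (correlations 0.26, 0.13 and 0.14, against -0.20 to 0.06 for other pairs), so the replicate number from the titles was treated as a possible pairing. No 2 arrays were identical. Alternatives covered the filter, a floor, normalization, trend, weights, probe set choice, the replicate block and each array left out. Isoform ratios were compared by exact permutation.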

Additional observations from a re-analysis of the deposited data

How the results depend on the processing

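With 3 arrays per genotype no member passed the adjusted threshold in limma except without labelled-null replicate 3, and leaving out each array in turn gave 0 to 3 members past it. In the 16 alternatives 10 to 14 members were higher at an unadjusted p under 0.05 and 0 were lower. With all 6 arrays and the settings of the report, 1.47% of all genes were higher and 1.20% lower at that limit. The 13 members that were higher in those settings kept their sign in all 16 alternatives. Of the other members, 16 turned sign in some alternative, 8 of them TCA genes. The cause was not tested. Correcting background anew was not run, since the arrays' scanner files were not used here.

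Over all genes, 2 passed higher and 4 lower in limma. The counts were 0 and 2 without a filter, with values raised to a floor of 4, or without the intensity trend, 0 and 0 when a gene's probe sets were averaged, and 1 higher after quantile normalization or median centring. With the replicate block for the pairing of numbers 4 passed higher, no member passed, no member's call changed, and Ndrg1 and Adm, hypoxia targets outside the set, did pass. Leaving out an array gave 0 to 14 higher and 0 to 8 lower, 14 and 8 of them without labelled-null replicate 3. The count of other pathway genes at an unadjusted p under 0.05, 1 higher and 0 lower, became 2 higher after quantile normalization, with array weights or with the block, 0 after centring or without the trend, and 2 higher and 1 lower with the mean of probe sets. Leaving out an array gave 0 to 2 higher and 0 to 1 lower.

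Signs turned with array weights for Pfkfb4 (0.070), Idh3b (0.041), Sdha (0.016), Sdhb (0.0019) and Mdh1 (0.015). They turned with the mean of probe sets for Pdhb (0.011), Sucla2 (0.10) and the isoform ratio, Slc2a3 over Slc2a1 (-0.045), and without cross-hybridising probe set types for Idh3b (0.032) and that ratio (-0.039). Leaving out each array in turn, differences ranged from -0.13 to 0.23 for Hk1, -0.011 to 0.079 for Pfkm, -0.12 to 0.014 for Mdh2, -0.038 to 0.32 for Slc16a1 and -0.31 to 0.032 for Pgam2. They ranged from -0.17 to 0.029 for Ldhb, -0.14 to 0.0095 for Pdhb, -0.048 to 0.059 for Idh3b, -0.11 to 0.017 for Sucla2 and -0.072 to 0.033 for Sdha. They ranged from -0.16 to 0.034 for Fh1, -0.049 to 0.037 for Pdk3, -0.073 to 0.0093 for Cs and -0.024 to 0.28 for the ratio of Slc2a3 to Slc2a1.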
